A study of Aspergillus nidulans FGSC A4 with 21 samples.

Results

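Penicillin biosynthesis in *Aspergillus nidulans* was followed through 4 genes: *acvA* (AN2621), *ipnA* (AN2622) and *aatB* (AN6775), which encode enzymes of the pathway, and *suAprgA1* (AN3034), which encodes a regulatory protein. They were taken by symbol from the gene tables of the 3 time points, which together list 2403 genes. None of the 4 was among the 703 genes listed at 6 h, and all 4 were among the 1503 genes listed at 24 h and the 1529 listed at 48 h. A further enzyme of the pathway, *aatA* (AN2623), is described beside them because it lies in the same gene cluster. RNA was sequenced from hyphae of strain FGSC A4, the standard wild type, grown for 18 h at 37 °C with 1% glucose and then moved to medium with 0.1% glucose. That medium held 200 μM benzo[a]pyrene (BaP), a polycyclic aromatic hydrocarbon, or only its solvent, dimethyl sulfoxide (DMSO). There were 3 replicate samples for each treatment at 6, 24 and 48 h. They are called cultures below, although the sources used here do not state that each was a separate culture. Both groups shared the strain and the low-glucose medium, and BaP was tested at 1 dose.

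Penicillin is made from amino acids in a few steps. The product of *acvA*, a nonribosomal peptide synthetase, joins α-aminoadipic acid, cysteine and valine into a tripeptide, and isopenicillin N synthase, encoded by *ipnA*, closes that tripeptide into the β-lactam ring. The acyltransferase encoded by *aatA* then exchanges the side chain for one such as phenylacetic acid, and *aatB* encodes a related enzyme that is partly redundant with it. *suAprgA1* was identified as a suppressor of the *prgA1* mutation, and its loss is known to lower *acvA* and *ipnA* expression and penicillin yield. In this fungus the cluster is known to respond to carbon source and ambient pH, and *ipnA* is repressed by glucose and acidic pH.

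Values are RPKM, that is, read numbers relative to the length of the transcript and the size of the library, and can be compared between genes because they are divided by length. Libraries carry the codes of the deposited columns (B for BaP, D for DMSO, with a running number). Their recovered sizes were 8.17 to 9.51 M reads (M, mega) for BaP and 9.18 to 12.1 M for DMSO at 24 h, where the groups overlapped. At 48 h every BaP library, at 5.97 to 7.27 M, was smaller than every DMSO library, at 8.40 to 9.88 M, so there the effect of library size cannot be told apart from that of treatment. The tables hold only genes that the study selected as changed in these same libraries. A difference at 24 or 48 h is therefore not independent evidence. Absence at 6 h means that a gene was not selected there. The study selected genes by limits on fold change and p-value, so an absent gene did not pass them or was not tested. Absence does not show that a gene was unchanged. That selection is separate from the calls made here. A gene was called when limma gave a log2 fold change of BaP over DMSO above 1 or below -1 and a Benjamini-Hochberg adjusted p under 0.05, on log2(RPKM + 1). A pseudocount of 1 understates the change of genes with low RPKM.

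On chromosome VI, the tables place *aatA* at 3358277 to 3359896 on the minus strand, *ipnA* at 3360450 to 3361817 on the minus strand and *acvA* at 3362471 to 3373783 on the plus strand. The genome build behind these positions is not given in the sources used here. *ipnA* and *acvA* point away from each other with 653 bases between them, the start of *aatA* lies 553 bases from the end of *ipnA*, and the 3 genes span 15507 bases. They are adjacent in the gene order of the RefSeq annotation as well. Of the 4 genes that flank the trio in that order, none was listed at any time. The other listed gene starting within 20000 bases was AN2626, whose start lies 13010 bases from that of *aatA*. It was listed at 48 h only, with 14.5 ± 1.01 RPKM under BaP and 39.8 ± 11.7 under DMSO (SD, n = 3), a log2 fold change of -1.36 (SE 0.32, limma adjusted p = 0.00276). *suAprgA1* lies on the same chromosome, far from the cluster, at 2050956 to 2052478 on the plus strand. *aatB* is on chromosome I, at 3125437 to 3126746 on the minus strand. The values are for whole genes, counted over exons, and do not separate isoforms.

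Under BaP, transcripts of *ipnA*, *aatA* and *aatB* fell at 24 and 48 h, while *suAprgA1* transcripts rose. *acvA* was lower in every BaP library at both times but, at under 2 RPKM, its call depended on the scale. The falls in *ipnA* and *aatA* were among the steepest in the 48 h table.

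*ipnA*, the ring-closing enzyme, was the most abundant enzyme transcript in each group. At 24 h its levels were 18.1, 23.7 and 14.1 RPKM in BaP libraries B22, B23 and B24, and 54.7, 42.4 and 65.3 RPKM in DMSO libraries D25, D26 and D27. Every DMSO library was above every BaP library, the closest pair being 1.79-fold apart. The means were 18.6 ± 4.82 and 54.2 ± 11.5 RPKM (SD, n = 3), 2.91-fold lower under BaP (log2 fold change -1.50, SE 0.29, limma adjusted p = 0.0155). At 48 h the levels were 14.8, 16.4 and 8.75 RPKM in B28, B29 and B30, and 173, 121 and 56.2 RPKM in D31, D32 and D33. All 3 BaP cultures were low, and the DMSO cultures were spread widely, with D33 well under the other two. The means of 13.3 ± 4.03 and 117 ± 58.5 RPKM (SD, n = 3) differed 8.78-fold (log2 fold change -2.94, SE 0.41, limma adjusted p = 0.000527), which placed *ipnA* 8th among the falls of the 1529 listed genes. At 24 h it was 84th of 1503. Ranked by voom fold changes it was 17th at 48 h and 195th at 24 h.

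*aatA*, the side-chain acyltransferase of the cluster, had the steepest fall of the 4 enzymes. Its 24 h levels were 3.26, 5.04 and 2.28 RPKM in B22, B23 and B24 and 16.3, 10.6 and 18.3 RPKM in D25, D26 and D27. The groups stood apart, with D26 lowest among the DMSO cultures. Its means were 3.52 ± 1.40 and 15.1 ± 3.97 RPKM (SD, n = 3), a 4.28-fold difference (log2 fold change -1.84, SE 0.33, limma adjusted p = 0.0155). The 48 h levels were 2.53, 4.97 and 1.99 RPKM in B28, B29 and B30 and 60.9, 51.8 and 19.9 RPKM in D31, D32 and D33. Even the lowest DMSO culture, D33, was far above the highest BaP culture, B29. The BaP values of *aatA* rest on few reads, 27 to 69 per library at 24 h and 21 to 49 at 48 h. For 21 reads, counting error alone is 21.8% of the value. The means of 3.17 ± 1.59 and 44.2 ± 21.5 RPKM (SD, n = 3) differed 14.0-fold (log2 fold change -3.36, SE 0.42, limma adjusted p = 0.000358). It was the 5th largest fall at 48 h and the 21st at 24 h.

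*acvA*, the peptide synthetase, was the least abundant of the enzyme transcripts per length. Its levels at 24 h were 0.195, 0.244 and 0.162 RPKM in B22, B23 and B24 and 0.625, 0.568 and 0.692 RPKM in D25, D26 and D27. The groups did not overlap, and the depth behind these values was 15 to 26 reads per BaP library and 59 to 95 per DMSO library. At 48 h the levels were 0.296, 0.339 and 0.134 RPKM in B28, B29 and B30 and 1.43, 1.63 and 1.17 RPKM in D31, D32 and D33. Again every BaP culture was below every DMSO culture, on 11 to 26 against 111 to 168 reads; for 11 reads, counting error alone is 30.2% of the value. Means were 0.2004 ± 0.0410 and 0.628 ± 0.0621 RPKM at 24 h and 0.256 ± 0.108 and 1.41 ± 0.232 RPKM at 48 h (SD, n = 3), so the level was 3.13-fold and 5.50-fold lower under BaP.

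On the log2(RPKM + 1) scale *acvA* missed the call at both times. Its listing means that it had passed the study's own limits on fold change and p-value at both times. At 24 h the log2 fold change was -0.44 (SE 0.21, 95% interval -0.94 to 0.06, limma adjusted p = 0.0802). At 48 h it was -0.94 (SE 0.29, 95% interval -1.57 to -0.31, limma adjusted p = 0.00836), short of the fold limit. With a pseudocount of 0.1 it was called, at -1.28 (limma adjusted p = 0.0129) and -2.12 (limma adjusted p = 0.000103). With limma's voom on the recovered reads, a method chosen after seeing the data, it was called at -1.63 (adjusted p = 0.00953) and -2.53 (adjusted p = 2.92e-05). Called falls made up 47.8% of listed genes at 24 h and 50.6% at 48 h with the smaller pseudocount, and 49.4% and 50.6% with voom. Leaving out D33 brought the 48 h value to -1.01 on the first scale, past the limit. The ranking of the gene moved in the same way, from 728th to 154th among the falls at 24 h and from 699th to 45th at 48 h between log2(RPKM + 1) and voom.

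*aatB*, the acyltransferase-like gene outside the cluster, had levels of 7.85, 14.7 and 10.9 RPKM in B22, B23 and B24 at 24 h, and 30.04, 21.3 and 41.6 RPKM in D25, D26 and D27. The groups did not overlap, but B23 and D26 were only 1.44-fold apart. Means of 11.2 ± 3.45 and 30.98 ± 10.2 RPKM (SD, n = 3) differed 2.77-fold (log2 fold change -1.38, SE 0.34, limma adjusted p = 0.0155). At 48 h the levels were 5.52, 3.97 and 3.82 RPKM in B28, B29 and B30 and 17.1, 20.5 and 9.71 RPKM in D31, D32 and D33. D33 was again the lowest DMSO culture and still 1.76-fold above B28. The 48 h BaP values rest on 31 to 38 reads per library, and for 31 reads counting error alone is 18.0% of the value. Means of 4.44 ± 0.941 and 15.8 ± 5.52 RPKM (SD, n = 3) differed 3.56-fold (log2 fold change -1.58, SE 0.34, limma adjusted p = 0.00195). *aatB* ranked 136th among the falls at 24 h and 187th at 48 h, or 237th and 219th by voom.

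*suAprgA1*, the regulatory gene, moved the other way. At 24 h its levels were 195, 127 and 180.0 RPKM in B22, B23 and B24 and 68.8, 104 and 54.8 RPKM in D25, D26 and D27. B23 was the lowest BaP culture and D26 the highest DMSO culture, and these 2 were 1.21-fold apart without overlap. Means of 167 ± 36.0 and 76.0 ± 25.6 RPKM (SD, n = 3) gave a 2.20-fold rise (log2 fold change 1.16, SE 0.32, limma adjusted p = 0.0164). At 48 h the levels were 221, 214 and 216 RPKM in B28, B29 and B30 and 59.6, 67.2 and 138 RPKM in D31, D32 and D33. The BaP cultures were nearly identical, and D33 was the highest of the DMSO cultures. Means of 217 ± 3.45 and 88.2 ± 43.0 RPKM (SD, n = 3) gave a 2.46-fold rise (log2 fold change 1.39, SE 0.35, limma adjusted p = 0.00353). The rise ranked 467th at 24 h and 346th at 48 h.

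**Figure D1:**
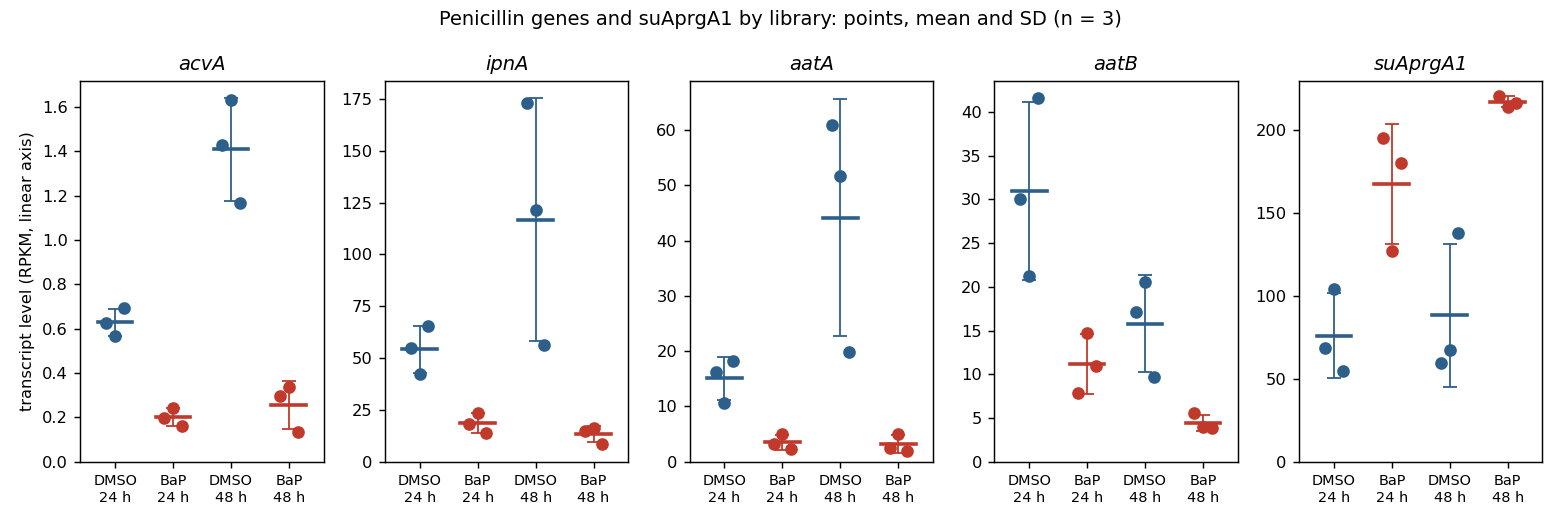
Transcript level in RPKM (vertical axes, linear from 0, 1 scale per gene) of the 4 enzyme genes and *suAprgA1* in each library, by treatment and time; points are libraries, thick bars means and thin bars SD (n = 3). The enzymes are lower and *suAprgA1* is higher in the BaP libraries (red) than in the DMSO libraries (blue), and the 48 h DMSO libraries are widely spread for *ipnA*, with 56.2 to 173 RPKM.

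Of the 4 genes taken by symbol, 3 were called at 24 h and 3 at 48 h, with *acvA* missing at both. This has to be read against the tables themselves, where 74.1% of listed genes were called at 24 h and 83.9% at 48 h. By direction, the called falls made up 32.6% of the listed genes at 24 h and 43.0% at 48 h, and the called rises 41.5% and 40.9%. All 4 genes had groups that did not overlap at both times, as did 93.7% of listed genes at 24 h and 99.7% at 48 h. The sizes of the changes carry more than the counts. Among listed genes with a negative fold change the median was -1.09 at 24 h and -1.26 at 48 h. *aatA* lay well beyond it at both times, and *ipnA* did so at 48 h. *ipnA* at 24 h and *aatB* at both times lay somewhat beyond it. With voom the 24 h median was -1.29, with *ipnA* at -1.54 and *aatB* at -1.46. The positive fold changes had medians of 1.26 at 24 h, above the *suAprgA1* value, and 1.34 at 48 h, close to it.

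The 24 h calls were less firm than those at 48 h. At 24 h, the calls of *ipnA*, *aatA*, *aatB* and *suAprgA1* were lost when B22, B24 or D25 was left out, with limma adjusted p between 0.0576 and 0.0639. In each of these 3 fits 1 gene of the whole table was called. *suAprgA1* also fell short of the fold limit without D27, at 0.95. At 48 h these 4 genes were called with any single library left out. DMSO libraries D26 and D33 stood nearer to the BaP cultures than their companions did, for these genes and for the tables as wholes. Each library was placed on a scale where 1 is the mean of the other libraries of its group and 0 that of the other treatment. Listed genes for which these means were close together were left out. The median gene was at 0.623 in D26 and at 0.561 in D33, and at 0.687 in BaP library B23. Other libraries at 24 and 48 h were between 0.905 and 1.43. Without D33 the 48 h log2 fold changes grew to -3.39 for *ipnA*, -3.84 for *aatA* and 1.76 for *suAprgA1*.

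**Figure D2:**
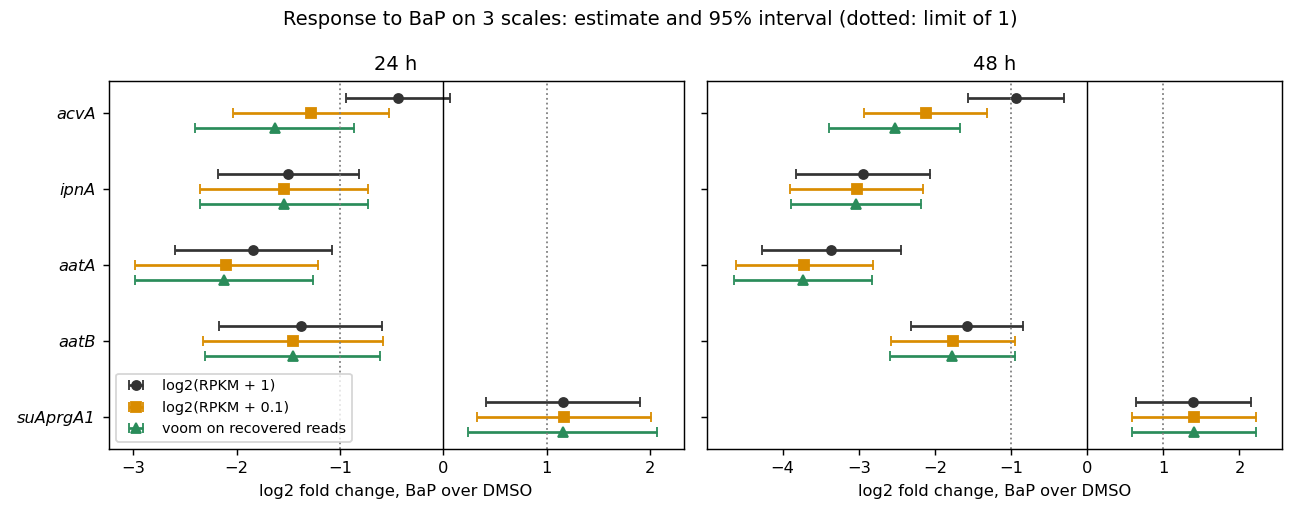
Log2 fold change of BaP over DMSO (horizontal axes) at 24 h and 48 h for each gene, with 95% intervals, on log2(RPKM + 1), on log2(RPKM + 0.1) and from voom on recovered reads. Estimates for *ipnA*, *aatA*, *aatB* and *suAprgA1* change little between scales, whereas *acvA* moves from -0.44 to -1.63 at 24 h and from -0.94 to -2.53 at 48 h.

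Whether the enzymes changed relative to *suAprgA1* was tested within libraries, on the difference of the log2 values, so that library size cancels apart from the pseudocount. *suAprgA1* was 10.8, 5.36 and 12.8 times the *ipnA* level in B22, B23 and B24, against 1.26, 2.46 and 0.838 times in D25, D26 and D27. At 48 h the ratio was 14.9, 13.0 and 24.7 in B28, B29 and B30, against 0.345, 0.554 and 2.45 in D31, D32 and D33. In 3 of the 6 DMSO cultures, D27, D31 and D32, *ipnA* was above *suAprgA1* per length, and in no BaP culture was it. Relative to *suAprgA1*, *ipnA* fell by 2.66 on the log2 scale at 24 h (95% interval -3.79 to -1.52, limma adjusted p = 0.00575) and by 4.33 at 48 h (95% interval -6.06 to -2.61, limma adjusted p = 0.00579).

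The other enzymes did likewise. Against *suAprgA1*, the log2 change of *aatA* was -3.00 at 24 h and -4.75 at 48 h (SE 0.53 and 0.75, limma adjusted p = 0.00575 and 0.00579). That of *aatB* was -2.54 and -2.97 (SE 0.56 and 0.57, limma adjusted p = 0.00584 and 0.00579). For *acvA*, with its low RPKM, it was -1.60 and -2.33 (SE 0.38 and 0.42, limma adjusted p = 0.00712 and 0.00579). All 8 comparisons, 4 enzymes at 2 times, were without overlap and had a limma adjusted p under 0.05, also with any single library left out. This was the usual outcome for falling genes: relative to *suAprgA1*, 50.2% of the listed genes at 24 h and 55.1% at 48 h were lower without overlap. Those lower with an adjusted p under 0.05 made up 50.6% and 51.0%, and 48.5% and 50.5% also stayed so with any library left out. The exact two-sided permutation test of 3 against 3 gave p = 0.1 for each, the smallest it can give. Opposite directions were already fixed by the single-gene results, so these ratios add the size of the shift and not a separate observation of it.

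**Figure D3:**
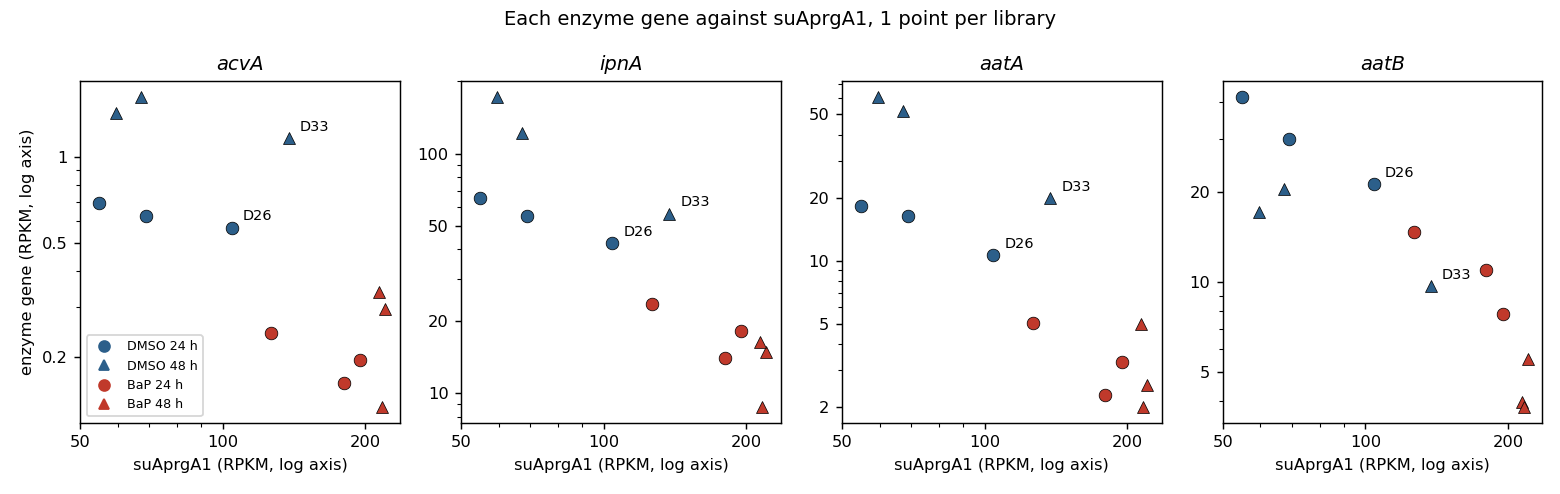
Level of each enzyme gene (vertical axes, RPKM, log scale) against *suAprgA1* (horizontal axes, RPKM, log scale) with 1 point per library; circles are 24 h, triangles 48 h, red BaP and blue DMSO. At each time the BaP libraries lie at higher *suAprgA1* and lower enzyme levels, and the labelled DMSO libraries D26 and D33 lie nearest to them, at 104 and 138 RPKM of *suAprgA1*.

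The enzymes were also set against one another within each library. The *ipnA* to *acvA* ratio, which compares the divergent pair, was 86.6 to 97.0 under BaP and 74.7 to 94.4 under DMSO at 24 h (exact permutation p = 0.5, n = 3). At 48 h it was 48.3 to 65.4 under BaP and 48.1 to 121 under DMSO (exact permutation p = 0.4, n = 3). These ranges overlapped, so no change in the balance of the pair was detectable with 3 cultures a group, which does not show that there was none. The *ipnA* to *aatA* ratio was higher under BaP at both times, at 4.69 to 6.18 against 3.37 to 3.99 at 24 h and 3.29 to 5.84 against 2.35 to 2.84 at 48 h. The *aatA* to *aatB* ratio was lower under BaP, at 0.208 to 0.415 against 0.440 to 0.541 at 24 h and 0.459 to 1.25 against 2.05 to 3.55 at 48 h. For both of these ratios the groups did not overlap at either time, and the exact permutation p was 0.1 (n = 3), the smallest possible. How often other pairs of listed genes separate in this way was not determined. Both ratios rest on *aatA*, with 21 to 49 reads per BaP library at 48 h. The nearest *ipnA* to *aatA* values at 48 h were 3.29 in B29 and 2.84 in D31. The 48 h ratio of the acyltransferase genes thus put *aatA* above *aatB* in each DMSO culture, whereas *aatB* was the higher one in B28 and B30 and in all 6 cultures at 24 h.

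By their means per length, the genes had the same order under DMSO at 24 h and under BaP at both times, from *suAprgA1* through *ipnA*, *aatB* and *aatA* to *acvA*. Among neighbours in that order, the ranges overlapped for *suAprgA1* and *ipnA* in DMSO at 24 h, for *ipnA* and *aatB* in BaP at 24 h, and for *aatB* and *aatA* in BaP at 48 h. DMSO at 48 h had another order, with *ipnA* first, followed by *suAprgA1*, *aatA*, *aatB* and *acvA*. There the ranges of each neighbouring pair overlapped, except that *acvA* was separate from *aatB*. Among listed genes, 89.7% had a lower DMSO mean than *ipnA* at 48 h, and 41.2% had a lower BaP mean. For *suAprgA1* these shares were 86.3% and 93.3%, and for *acvA* 4.84% and 1.44%.

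Levels at the 2 times come from separate tables and are set side by side with no test. In DMSO cultures, the mean at 48 h was 2.24 times that at 24 h for *acvA*, 2.16 times for *ipnA* and 2.93 times for *aatA*. *ipnA* overlapped between the times because of D33, and the other two cluster genes did not overlap. *aatB* went the other way, with a 24 h mean 1.96 times that at 48 h in DMSO and 2.52 times in BaP, in both cases without overlap. Under BaP the cluster genes overlapped between 24 and 48 h, with 48 h means of 1.28, 0.715 and 0.899 times those at 24 h for *acvA*, *ipnA* and *aatA*. *suAprgA1* was 1.30 times higher at 48 h under BaP without overlap, and 1.16 times higher under DMSO with overlap.

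A list of 15 genes, chosen as possible regulators of the penicillin genes, was looked up. At 6 h, 0 of them appeared in the table. The 24 h table, which holds 15.3% of the 9809 genes tested by the study, held 4, and these were all called lower, with a median log2 fold change of -1.26. Of all genes in that table, 32.6% were called lower. They were *veA*, the light-dependent velvet protein, at 25.4 ± 8.68 under BaP and 73.2 ± 19.6 RPKM under DMSO (SD, n = 3; log2 fold change -1.51), and *pacC*, the transcription factor of the alkaline pH response, at -1.28. *velC*, a further velvet family gene, was at -1.24. Its description names only the regulation of sexual development, and it was not listed at 48 h. *laeA*, a methyltransferase that regulates secondary metabolism, was at -1.05. Depending on the gene, 2 or 3 of the 6 fits with a library left out kept the call. At 48 h *laeA* fell from 21.7 ± 7.83 in DMSO to 5.33 ± 0.401 RPKM in BaP (SD, n = 3), a log2 fold change of -1.78 (limma adjusted p = 0.00135). *pacC* fell by 1.69 and *veA* by 1.58 on the log2 scale, all 3 calls holding without any single library, in a table with 43.0% of genes called lower. *velB*, the partner of VeA in the velvet complex, had the opposite sign and missed the fold limit, at 24.1 ± 2.47 under BaP and 12.4 ± 3.82 RPKM under DMSO (log2 fold change 0.93).

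A second list held 16 symbols, and words in the descriptions, for genes that supply or remove the precursors. Apart from the enzymes themselves, 4 of its genes were listed at 24 h and 5 at 48 h. *mecB*, cystathionine γ-lyase of cysteine synthesis, was called higher at 24 h (88.3 ± 10.1 against 34.8 ± 8.99 RPKM, log2 fold change 1.34) and missed the limit at 48 h, at 0.94. AN1990, a putative homocitrate synthase, the type of enzyme that begins lysine and α-aminoadipic acid synthesis in fungi, was called higher at 48 h at 1.07, a call that held in 4 of the 6 fits without a library. *phacB*, *maiA* and *fahA* were called lower at both times. *phacB* encodes a cytochrome P450 of the breakdown of phenylacetic acid, and *maiA* and *fahA* encode later enzymes of phenylalanine breakdown. Their log2 fold changes were -1.23, -2.02 and -2.49 at 24 h and -1.49, -1.87 and -2.00 at 48 h. Called falls made up 32.6% of listed genes at 24 h and 43.0% at 48 h, and called rises 41.5% and 40.9%. The 24 h calls of *mecB*, *maiA* and *fahA* held in 3 of the 6 fits without a library, and that of *phacB* in 2. At 48 h the calls of *phacB*, *maiA* and *fahA* held in all 6. At 6 h the tables listed AN5272, a putative phenylacetate-CoA ligase, at 1.91 ± 0.0736 RPKM under BaP and 3.90 ± 0.675 under DMSO (log2 fold change -0.74, not called). *pdcA*, a putative pyruvate decarboxylase whose description also mentions penicillin, was called higher at 6 h (149 ± 11.0 against 68.1 ± 5.83 RPKM, log2 fold change 1.12), where 63.6% of the listed genes were called higher. Each BaP library was smaller than each DMSO library at 6 h. With libraries rescaled to a common median of the listed genes, *pdcA* was at 0.02, no longer called, and AN5272 at -1.84, now called. Of those listed genes 535 rose and 168 fell, so the rescaling moves every log2 fold change by -1.10 by construction. It cannot decide these calls.

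**Figure D4:**
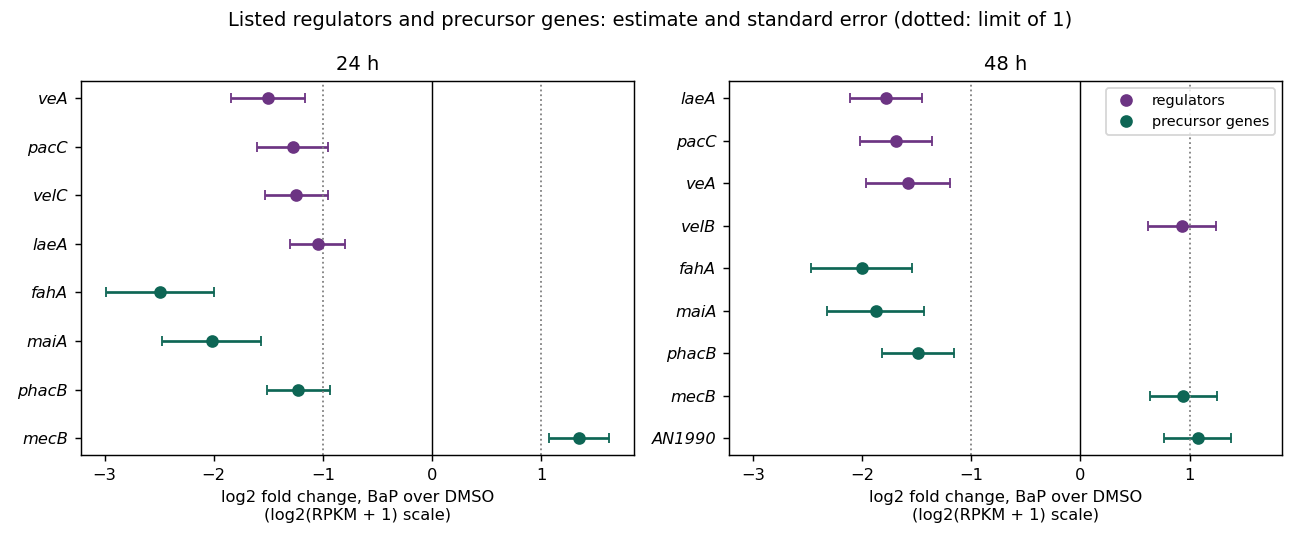
Log2 fold change of BaP over DMSO on the log2(RPKM + 1) scale (horizontal axes) for the listed regulators (purple) and precursor genes (green) at 24 h and 48 h, with standard errors. The regulators *laeA*, *pacC* and *veA* are below -1 at both times, *velB* is at 0.93 at 48 h, and *mecB* is at 1.34 and 0.94.

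For comparison, the genes of sterigmatocystin synthesis, another secondary metabolite, comprised *aflR* and the listed *stc* genes. All 6 listed at 24 h and all 13 listed at 48 h were called lower, against 32.6% and 43.0% of all listed genes, with median log2 fold changes of -1.10 and -2.07. At 48 h the *ipnA* and *aatA* values were below that median and the *aatB* and *acvA* values were above it, on log2(RPKM + 1). With voom the 48 h sterigmatocystin genes ran from -3.56 to -1.30. By that method *aatA* was at -3.74, *ipnA* at -3.03, *acvA* at -2.53 and *aatB* at -1.77, so *aatA* alone lay outside their range.

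In the 12 libraries at 24 and 48 h, with each table centred, the genes most like each enzyme were found among 914 genes listed at both times by Pearson correlation of log2(RPKM + 1). These libraries fall into a BaP and a DMSO cluster, so the values describe likeness and carry no test. Of the cluster genes, *aatA* was first for *ipnA* (r = 0.99), and *aatA* and *ipnA* were ranked 2 and 3 for *acvA* (r = 0.98 for both), behind AN9138, a putative amidase. In the other direction *acvA* was 14th for *ipnA* and 16th for *aatA*. AN7181, with no function in its description, and AN8903, a putative peptide transporter, followed for *ipnA*. AN7181 and *mccA*, a subunit of the methylcrotonyl-CoA carboxylase of leucine breakdown, came before *ipnA* for *aatA*. *aatB* was further off, 181st in the order for *acvA* and 218th for both *ipnA* and *aatA* (r between 0.91 and 0.93). Its own nearest genes were AN8432, AN2853 and AN1947. For *suAprgA1* the nearest were AN5340, AN3691 and *napB*, a nucleosome assembly family gene, and its r with the enzymes ran from -0.98 to -0.90.

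Development could change the mix of cells in these cultures. In whole-culture RNA, fewer cells of a type and less RNA per cell cannot be told apart. At 6 h, where no penicillin gene taken by symbol was listed, 6 of 12 markers of asexual development were. The 6 h table holds 7.17% of the 9809 genes tested by the study. The summed level of these 6 markers was 941 to 1395 RPKM under BaP and 399 to 468 under DMSO. Of these, 5 were called higher, in a table where 63.6% of genes were called higher. With libraries rescaled to a common median of the listed genes, 0 were called higher and *conF* was at -0.02 (limma adjusted p = 0.953). At 6 h, 535 listed genes rose and 168 fell, so the rescaling moves every log2 fold change by -1.10 by construction. It cannot decide whether these markers rose. The sixth marker, the regulator *abaA*, was at 0.731 ± 0.310 RPKM under BaP and 1.71 ± 0.473 under DMSO (SD, n = 3), a log2 fold change of -0.65, not called. It was called lower with voom (-1.26) and with rescaled libraries (-1.74). Of the 12 markers, 1 was listed at 24 h, *ivoB*, with 85.7 to 233 RPKM under BaP and 270 to 367 under DMSO. It was called lower (log2 fold change -1.22), as were 32.6% of listed genes. At 48 h 2 were listed, *conF* and *yA*, with a summed level of 430 to 676 RPKM under BaP and 82.7 to 367 under DMSO. Most of this sum was *conF*, with a BaP mean of 488 RPKM against 46.0 for *yA*. *conF* was called higher (1.95), as were 40.9% of listed genes, and *yA* was not called (0.94). Of 5 markers of sexual development, *mutA* was listed at 6 h, with 1.67 to 2.48 RPKM under BaP and 2.97 to 5.46 under DMSO. Its log2 fold change was -0.74, not called, and it was called lower with voom (-1.01). *nsdD* was listed at 24 h, with 10.8 to 36.2 RPKM against 61.0 to 90.5. *nsdD* and *cpeA* were listed at 48 h, with summed levels of 131 to 188 RPKM against 285 to 424. The other asexual regulators *brlA* and *wetA* were not listed at any time. The part of these shifts in the penicillin gene results was not tested.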

How the data were processed

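RNA-seq of 18 BaP and DMSO libraries was analysed, with 3 replicate samples per group. The 3 samples from the start of treatment were not used. The authors deposited 3 tables, 1 per time point and restricted to genes they selected, whose values per library are read here as RPKM; no unit is named in them. The submitters' processing notes name FastQC, Subread, featureCounts, limma and Cufflinks, and genome build and versions are not given in the sources used here. The authors also deposited a log2 fold change and log2 mean expression, which were not used. The deposited p-value and adjusted p-value columns served only to find, from their ratio, that 9809 genes had been tested.

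Library sizes (5.97 to 13.7 M reads) and whole reads were recovered from the RPKM steps, for all 703, 1503 and 1529 listed genes. The sizes are inferred, fixed by 21, 31 and 15 genes at 6, 24 and 48 h. They lie below the number of reads per sample that the paper reports, and the reason was not tested. As far as this recovery holds, sizes and reads give the depth behind each value. Counting error is stated for *acvA*, *aatA* and *aatB*, where reads were few. Each time point was fitted with limma 3.58.1 (R 4.3.3) on log2(RPKM + 1) over all listed genes, 3 against 3, with Benjamini-Hochberg adjustment over the table. The code was tested on simulated data. Ratios to *suAprgA1* were fitted in the same way. Alternatives were a pseudocount of 0.1, a mean of at least 1 RPKM, rescaled libraries, adjustment over all 9809 genes, a false discovery rate of 0.01, no fold limit, an intensity trend, single libraries left out and voom. Columns carry no replicate numbers. The replicates are not stated to be separate cultures, so p-values measure only the spread between these samples. Named genes are the 4 chosen by symbol, listed genes of the regulator, precursor and penicillin lists, listed genes within 20000 bases of the cluster, and the 3 genes most like each member; sterigmatocystin genes are given as a group. Members and lists were chosen with earlier results of these data known. All 4 members matched RefSeq locus tags, used for gene order only. Python 3.11.15 was used with numpy 2.4.6, scipy 1.17.1, pandas 2.3.3 and, for plots, matplotlib 3.10.9.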

Additional observations from a re-analysis of the deposited data

How the results depend on the processing

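For single genes and ratios, 194 values were recomputed under the alternatives; 167 kept their direction and their side of the threshold, 21 were no longer called, 6 became called and 0 reversed. *acvA* became called with a pseudocount of 0.1 (log2 fold change -1.28 at 24 h, -2.12 at 48 h), with voom on recovered reads, added after seeing the data (-1.63 and -2.53), and at 48 h with no fold limit (-0.94). With a false discovery rate of 0.01, or with adjustment over all 9809 genes, the 24 h values of *ipnA* (-1.50), *aatA* (-1.84), *aatB* (-1.38) and *suAprgA1* (1.16) were not called. Their limma adjusted p was 0.101, 0.101, 0.101 and 0.107 in the latter case. Of the 1114 genes called at 24 h, each of these settings left 1; the other settings are in the report. At 6 h, 535 listed genes rose and 168 fell, so rescaling libraries to 1 median of these genes lowers their fold changes by construction. Rescaling gave 202 called genes there in place of 520, with 107 genes in both. The median log2 fold change of all genes listed at 6 h moved by -1.10. The pseudocount of 0.1 and voom moved that median by -0.63 and -0.80 at 24 h and by -0.49 and -0.50 at 48 h, while no sign of a member changed.

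Leaving out single libraries gave 448 to 552 called genes at 6 h, 1 to 1238 at 24 h and 1080 to 1404 at 48 h. At 24 h the range of log2 fold changes was -0.47 to -0.41 for *acvA*, -1.68 to -1.32 for *ipnA*, -2.07 to -1.63 for *aatA*, -1.62 to -1.15 for *aatB* and 0.95 to 1.41 for *suAprgA1*. At 48 h it was -1.01 to -0.87, -3.39 to -2.59, -3.84 to -3.06, -1.87 to -1.37 and 1.16 to 1.76 in the same order. The filter on a mean of at least 1 RPKM left no value for *acvA*. No paired analysis was possible because the columns carry no replicate numbers. The selection of listed genes on the same libraries makes adjusted p-values too small by an unknown amount. Depth limits *acvA* most, with 11 to 26 reads per BaP library. It also limits *aatA* and *aatB* at 48 h, with 21 to 49 and 31 to 38 reads per BaP library. The causes of the lost calls were not tested.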
